A study of Mus musculus with 12 samples.

Results

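The Polycomb complex genes described here are 10 mouse genes that encode subunits of Polycomb repressive complex 2 (PRC2; *Ezh2*, *Ezh1*, *Eed* and *Suz12*) and of PRC1 (*Ring1*, *Rnf2*, *Bmi1*, *Cbx7*, *Phc1* and *Scmh1*), out of 41444 genes in the table. They were listed by name, and *Scmh1* was chosen by its rise with LY2090314, the same difference that is reported below, so the values of all 10 genes are given as a description without a test. The cells were bone marrow pre-B cells of Ctnnb1 fl/fl mice, grown with IL7 and then transformed with a BCR-ABL1 retrovirus and withdrawn from IL7. This is a culture model of B cell acute lymphoblastic leukemia. All cells received 4-OHT, a tamoxifen metabolite, at 1 µM for 2 days. Control cells carried the ERT2 vector, which holds no Cre and leaves β-catenin intact, and treated ERT2 cells also received 40 nM of the GSK3 inhibitor LY2090314 for 1 day per the sample labels, whereas the study's description of this experiment gives a shorter time. Each of these groups has 3 samples. The other 6 of the 12 columns have names that combine Cre and LY in 2 ways and could not be assigned to a group, so cells with deleted β-catenin are not analysed here.

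Polycomb proteins keep genes silent through chromatin. PRC2 methylates a lysine in the tail of histone H3 with its catalytic subunit, either EZH2 or EZH1, which works only together with EED and SUZ12. PRC1 contains a ubiquitin ligase, RING1 or RNF2, which modifies histone H2A and is activated by a partner such as BMI1. CBX proteins bind the PRC2 mark, and the PHC and SCMH proteins join PRC1 complexes to each other. EZH2 is the form of cycling cells, including B cell precursors, whereas EZH1 is the form of cells that divide little.

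Expression is given as rlog, a regularized log2 scale that corrects for library size. It pulls weakly expressed genes towards their own mean and so understates how much they differ. Without counts, the depth of the libraries is unknown. Genes with a mean rlog value of at least 3 across the 6 samples, 11536 in all, were fitted with limma, and p-values were adjusted over all of them. All 10 Polycomb genes passed this limit. A single-gene exact permutation test of 3 samples against 3 cannot give a p below 0.10. The study describes the samples of a group as biological replicates from separate mice. The sample labels do not name the mice, and a pair of treated columns carries 1 library number, so p-values measure the spread between these samples. The values below list the 3 control samples, then the 2 treated samples of that pair and the third treated sample. In bulk RNA, fewer cells of a type and less RNA per cell cannot be told apart. All 10 B-lineage markers were expressed, with group means between 4.59 for *Rag2* and 14.28 for *Cd79a*. With LY2090314, 9 of them were lower at the threshold of 0.05 and *Cd79a* was at 0.23 (adjusted p = 0.053, and 0.031 without the third treated sample, limma). Their summed linear level (2 to the power of the rlog value) was 78516.5 to 80104 in control and 51234 to 56603 in treated samples. All 6 genes of the T cell list had a mean below 3, with *Cd3e* at −2.28 in both groups, and none was tested. Their sum was 4.96 to 4.98 and 4.98 to 5.60. Of 6 myeloid markers, *Mpo* and *Elane* were listed at 0, and *Itgam* (1.37 and 1.45) and *Csf1r* (0.07 and 0.14) lay below the limit of 3. *Ly6g* went from 3.48 to 6.45 and *Lyz2* from 5.80 to 6.34, and the list summed to 65.9 to 75.1 and 167.0 to 174.6. Of 7 erythroid and stromal markers, *Hba-a1* and *Col1a2* were listed at 0, and *Pecam1*, which B cell precursors also express, went from 10.51 to 11.72 and carried nearly all of a sum of 1417 to 1498 and 3127 to 3510. The part of these markers in the results below was not tested.

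The subunits of PRC2 parted from each other in these cells. With LY2090314 the *Ezh2* transcript was 1.79-fold and the *Ezh1* transcript 1.31-fold higher, whereas *Eed* was 4.94-fold lower and the samples of both groups overlapped for *Suz12*. In PRC1, *Scmh1* was 2.12-fold higher, and the differences of the other 5 subunits were 0.25 or less on the log2 scale. Of the 10 genes, 5 had an adjusted p under 0.05, where 50.1% of all genes tested did. *Ezh2*, *Ezh1* and *Scmh1* were higher, against 24.8% of all genes, and *Eed* and *Phc1* lower, against 25.3%. In 6 of the 10 genes, *Ring1* in addition, the groups did not overlap, which held for 58.6% of all genes. Since the genes were chosen with this comparison in view, nothing is read from these counts. The median size of the difference was 0.24 for the 10 genes and 0.24 for all genes tested.

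**Figure D1:**
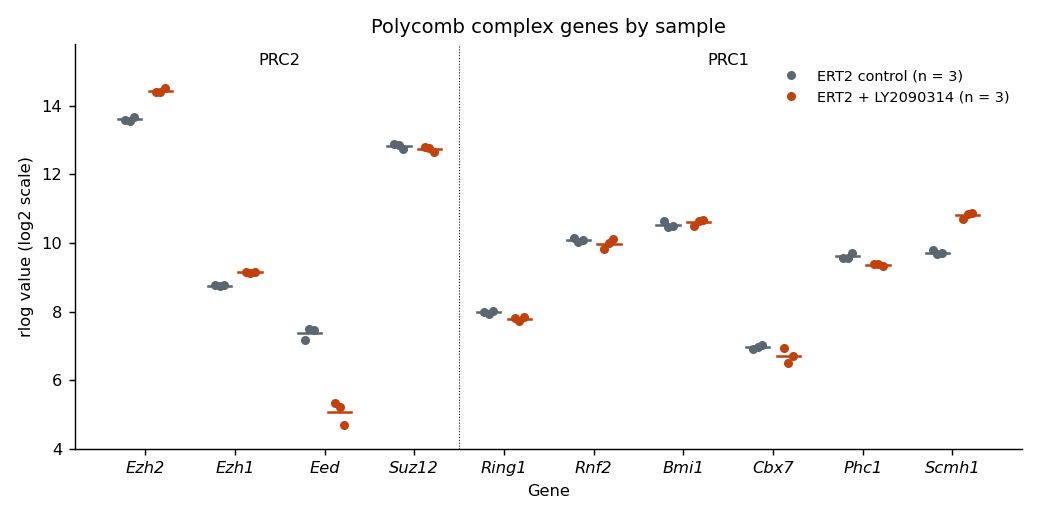
rlog values (log2 scale, vertical axis) of the 10 Polycomb genes (horizontal axis, PRC2 left and PRC1 right of the dotted line) in 3 ERT2 control samples (grey) and 3 ERT2 samples with LY2090314 (orange); points are samples and bars are group means. *Eed* is the only gene whose group means lie more than 2 units apart, from a mean of 7.38 to 5.08.

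The sequences before the start sites of 3 PRC2 genes are shown because the transcripts moved in different ways: *Ezh2* up, *Eed* down and *Suz12* hardly at all. They are the 250 bases before the RefSeq start site on GRCm38.p6, read along the gene, for *Ezh2* at chr6:47595031-47595280 (minus strand), for *Eed* at chr7:89980977-89981226 (minus strand) and for *Suz12* at chr11:79992856-79993105 (plus strand). Capitals mark matches to the motif of the TCF/LEF factors that partner β-catenin (the word CTTTGAA, the word CTTTGAT, the word CTTTGTA or the word CTTTGTT) or to the motif of the cell cycle factors E2F (TTTCCCGC, TTTCGCGC, TTTGCCGC or TTTGGCGC), on either strand.
Ezh2: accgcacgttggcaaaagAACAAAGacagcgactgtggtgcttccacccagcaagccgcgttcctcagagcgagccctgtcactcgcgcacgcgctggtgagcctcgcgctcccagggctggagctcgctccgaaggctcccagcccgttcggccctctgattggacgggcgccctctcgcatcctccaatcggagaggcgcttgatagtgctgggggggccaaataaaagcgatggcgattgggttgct
Eed: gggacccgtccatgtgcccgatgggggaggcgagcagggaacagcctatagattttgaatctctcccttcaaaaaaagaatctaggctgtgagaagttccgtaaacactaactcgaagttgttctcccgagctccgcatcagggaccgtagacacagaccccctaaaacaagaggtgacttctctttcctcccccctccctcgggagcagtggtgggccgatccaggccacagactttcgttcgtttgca
Suz12: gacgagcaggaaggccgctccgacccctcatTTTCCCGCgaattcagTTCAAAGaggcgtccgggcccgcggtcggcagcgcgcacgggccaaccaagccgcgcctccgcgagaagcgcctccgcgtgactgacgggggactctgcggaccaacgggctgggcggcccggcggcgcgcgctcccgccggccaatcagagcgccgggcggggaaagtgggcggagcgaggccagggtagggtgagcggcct

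*Ezh2* holds 1 TCF/LEF match, which begins 232 bases before the start. *Eed* holds neither motif. *Suz12* holds an E2F match 219 bases and a TCF/LEF match 203 bases before the start. These matches do not overlap. Of the windows of all 10 genes, found in the RefSeq table for each, a TCF/LEF match lay in those of 3 genes (*Ezh2*, *Suz12* and *Phc1*, 84 bases before its start) and an E2F match in that of *Suz12* alone, against 14.8% and 1.86% of 32851 windows of the same length. The E-box CACGTG that MYC binds was found before *Bmi1* alone, 215 bases from its start, against 6.02% of windows. Each of the 10 genes had a window with more CpG than the median of 6, with 8 in *Phc1*, 12 in *Eed*, 23 in *Ezh2* and 45 before the first of 2 starts of *Scmh1*, whose second start had 0. Part of the *Ezh2* window lies in an exon of a longer *Ezh2* transcript, and that of *Eed* lies in exons of *E230029C05Rik* on the other strand (GENCODE vM21). A match is a string of letters and not evidence of binding.

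*Ezh2* (ENSMUSG00000029687, chromosome 6 of GRCm38, 47530139 to 47595341, minus strand), which encodes the catalytic subunit of PRC2 in cycling cells, had rlog values of 13.59, 13.55 and 13.66 in control samples and 14.40, 14.39 and 14.52 with LY2090314. Every treated sample was above every control sample, with a gap of 0.73. The mean went from 13.60 ± 0.058 to 14.44 ± 0.070 (SD, n = 3 each), a difference of 0.84 (standard error 0.063). A larger difference in either direction was seen in 8.56% of the genes tested, which is a description and not a test, as *Ezh2* was listed with this comparison in view. Its paralog *Ezh1* (ENSMUSG00000006920, chromosome 11, 101191115 to 101226463, minus strand) had values of 8.76, 8.75 and 8.77 in control and 9.16, 9.13 and 9.14 in treated samples. The groups did not overlap and the samples of each group lay close together (SD 0.012 and 0.018), and the difference was 0.39 (standard error 0.055). Both catalytic subunits were thus higher in treated samples, *Ezh2* by more than *Ezh1*.

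*Eed* (ENSMUSG00000030619, chromosome 7, 89954654 to 89980983, minus strand) encodes the subunit that binds the methyl mark and stimulates the enzyme. Its values were 7.18, 7.50 and 7.46 in control and 5.32, 5.22 and 4.68 in treated samples. The highest treated sample lay 1.86 below the lowest control sample, and the third treated sample was lower than the other two. The mean went from 7.38 ± 0.17 to 5.08 ± 0.35 (SD, n = 3 each), a difference of −2.30 (standard error 0.18), and 0.94% of the genes tested had a larger one in either direction. This place among all genes is likewise a description and not a test. *Eed* shares 261 exon bases with *E230029C05Rik* on the other strand, which was at −0.16 and −0.15 in both groups. *Suz12* (ENSMUSG00000017548, chromosome 11, 79993106 to 80034123, plus strand), the scaffold of the complex, had values of 12.89, 12.84 and 12.75 in control and 12.78, 12.78 and 12.66 in treated samples. The groups overlapped, and the difference of −0.09 (standard error 0.059) was about the size of the spread within a group. *Ezh2* and *Suz12* share exon bases with *Gm26625* and *Gm26563*, respectively, on the other strand, which were not analysed here.

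**Figure D2:**
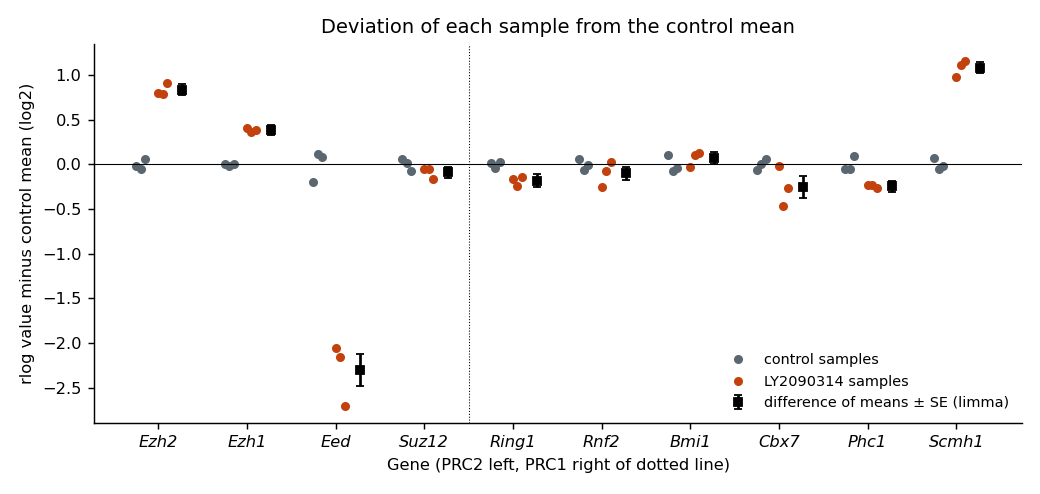
Deviation of each sample from the control mean of the gene (log2, vertical axis) for the 10 Polycomb genes (horizontal axis); grey points are control samples, orange points treated samples, and black squares the difference of means with its standard error from limma. *Eed* at −2.30, *Scmh1* at 1.09 and *Ezh2* at 0.84 stand farthest from 0.

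Levels of different genes were set side by side after scaling to exon length (rlog value minus the log2 of the exon length in kilobases). This is approximate, since the lengths of the transcripts in use are unknown and rlog values of weakly expressed genes are shrunken. In control cells the length-scaled level was highest for *Ezh2* (10.86 ± 0.058) and *Suz12* (10.52 ± 0.071), followed by *Bmi1* (8.54 ± 0.098), *Rnf2* (8.03 ± 0.062), *Phc1* (7.20 ± 0.086), *Scmh1* (6.77 ± 0.067), *Ring1* (6.28 ± 0.038), *Ezh1* (5.86 ± 0.012), *Eed* (5.44 ± 0.17) and *Cbx7* (4.27 ± 0.063; SD, n = 3 each). The control samples of no 2 neighbours in this order overlapped. With LY2090314, *Scmh1* (7.85 ± 0.090) stood above *Phc1* (6.96 ± 0.019) and overlapped with *Rnf2* (7.93 ± 0.14), *Ezh1* (6.25 ± 0.018) stood above *Ring1* (6.09 ± 0.053), and *Eed* (3.14 ± 0.35) came last, below *Cbx7* (4.02 ± 0.23).

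Within each sample, *Ezh2* was the predominant catalytic transcript. The length-scaled log2 ratio of *Ezh2* to *Ezh1* was 4.98, 4.96 and 5.05 in control and 5.39, 5.42 and 5.53 in treated samples, a mean ratio of 31.9 and 43.6 on the linear scale. The log2 ratio of *Ezh2* to *Suz12* was 0.26, 0.27 and 0.48 in control and 1.18, 1.18 and 1.42 in treated samples, so that the catalytic and the scaffold transcript went from a ratio of 1.26 to one of 2.40. *Eed* was the scarcest core transcript of PRC2 in both groups. The log2 ratio of *Suz12* to *Eed* was 5.34, 4.97 and 4.92 in control and 7.09, 7.18 and 7.61 in treated samples. Even *Ezh1*, the minor catalytic form, went from a ratio to *Eed* of 1.34 to one of 8.63. The changes in these PRC2 ratios restate the differences of the single genes given above and are no further result. In PRC1, the ratio of *Scmh1* to *Phc1* went from 0.74 to 1.86, which mostly restates the rise for which *Scmh1* was chosen. The ratio of the ligase transcripts *Rnf2* and *Ring1*, 3.37 and 3.57, overlapped between the groups.

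**Figure D3:**
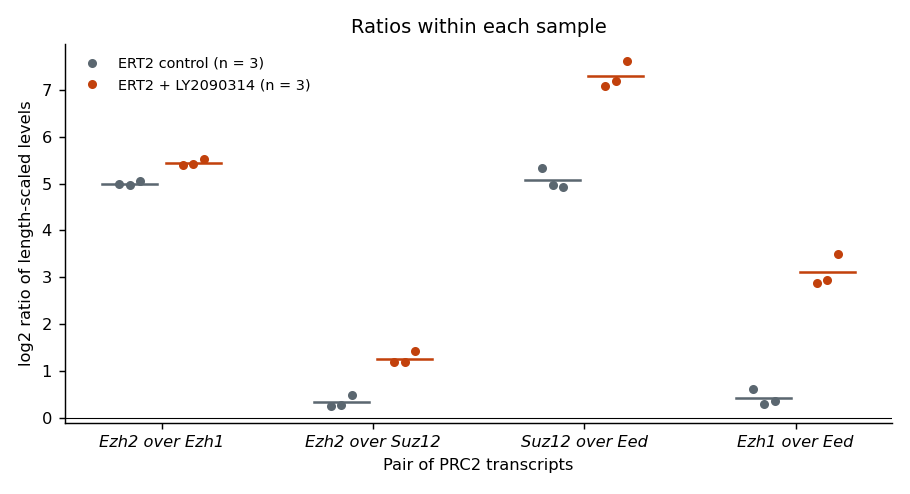
Log2 ratios of length-scaled levels (vertical axis) for 4 pairs of PRC2 transcripts (horizontal axis) within each of 3 control (grey) and 3 treated (orange) samples; bars are group means. All 4 ratios are higher in every treated sample than in any control sample, from a mean of 5.08 to 7.30 for *Suz12* over *Eed*. This restates the differences of the single genes.

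The ubiquitin ligases of PRC1 and their partner BMI1 differed little. *Ring1* (ENSMUSG00000024325, chromosome 17, 34020792 to 34024680, minus strand) had values of 7.99, 7.93 and 8.01 in control and 7.81, 7.73 and 7.83 in treated samples. The groups did not overlap, with a gap of 0.10, and the difference was −0.18 (standard error 0.072). The other ligase, *Rnf2* (ENSMUSG00000026484, chromosome 1, 151458004 to 151500955, minus strand), had values of 10.14, 10.02 and 10.07 in control and 9.83, 10.00 and 10.10 in treated samples. The groups overlapped, and the treated samples spread more widely (SD 0.14 against 0.062) than the difference of −0.10 (standard error 0.077). *Rnf2* shares 158 exon bases with *Trmt1l* on the other strand, which was at 9.19 and 9.40. *Bmi1* (ENSMUSG00000026739, chromosome 2, 18677018 to 18686629, plus strand) had values of 10.64, 10.46 and 10.50 in control and 10.51, 10.64 and 10.66 in treated samples. The groups overlapped, with a difference of 0.07 (standard error 0.067). A stretch of 2658 bases of *Bmi1* is 96.99% identical to *Gm5946*, so reads could be split between them, but *Gm5946* was at −1.96 in both groups.

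Among the subunits that read the mark or link complexes, *Scmh1* differed from the rest. *Cbx7* (ENSMUSG00000053411, chromosome 15, 79915807 to 79971119, minus strand), a reader of the PRC2 mark, had values of 6.90, 6.97 and 7.02 in control and 6.95, 6.50 and 6.70 in treated samples. The groups overlapped, and the difference of −0.25 (standard error 0.12) was close to the SD of the treated samples (0.23). *Cbx7* shares 100 exon bases with *Apobec3* on the other strand, which had a higher level, 12.46 and 12.77. *Phc1* (ENSMUSG00000040669, chromosome 6, 122317731 to 122340561, minus strand), which multimerizes PRC1 through its SAM domain, had values of 9.56, 9.56 and 9.71 in control and 9.37, 9.38 and 9.34 in treated samples. The groups did not overlap, with a difference of −0.24 (standard error 0.061). *Scmh1* (ENSMUSG00000000085, chromosome 4, 120405281 to 120530186, plus strand), which also has a SAM domain, had values of 9.79, 9.66 and 9.69 in control and 10.70, 10.83 and 10.87 in treated samples. All treated samples were above all control samples, with a difference of 1.09 (standard error 0.063). This rise was the reason for including *Scmh1* and is not a finding.

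**Figure D4:**
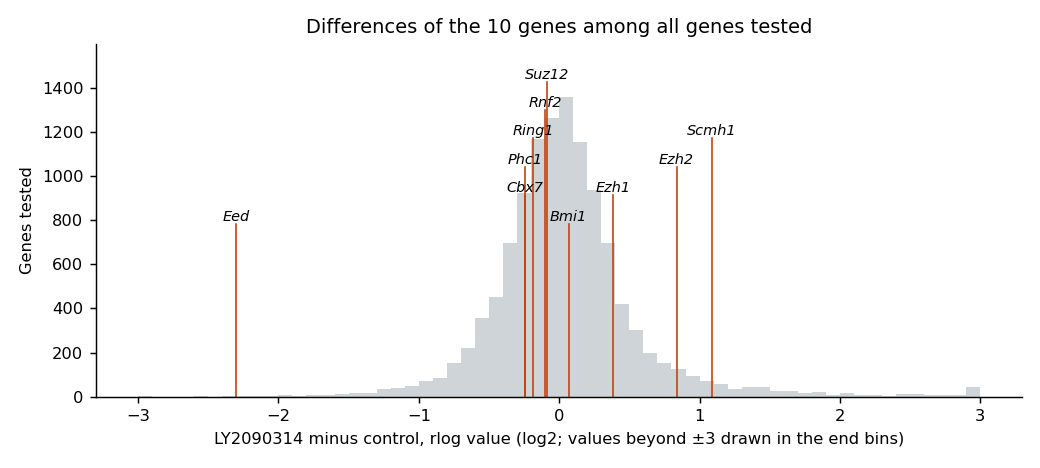
Histogram of the difference between LY2090314 and control (log2, horizontal axis) over the 11536 genes tested (vertical axis, number of genes), with the 10 Polycomb genes marked by orange lines whose height has no meaning. Most of the 10 lie in the body of the distribution, and *Eed* lies in its left tail, with 0.11% of genes below it. The 10 genes were chosen with this comparison in view, so their places are a description.

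Beyond these 10 genes, 56 further genes of the Polycomb system were examined, of which 50 were tested. They were PRC2 cofactors, other PRC1 subunits, MBT-domain proteins and other relatives of SCMH1, and enzymes that oppose Polycomb silencing with their partners. Of the 50, 16 rose, 10 fell and 24 did not pass the threshold, so 52.0% passed, where 50.1% of all genes did. Their median difference was 0.16, against 0.01 over all genes. Of 10 tested PRC2 cofactors, 3 rose and 2 fell, with a median of 0.14. *Epop*, a cofactor that links PRC2 to elongin, had values of 7.92, 8.04 and 8.15 in control and 8.85, 8.80 and 8.89 in treated samples and rose by 0.81 (standard error 0.079, adjusted p = 9.6e-05, limma). *Lcorl* rose by 0.59 (adjusted p = 0.0012, limma) and shares 944 exon bases with *Ncapg* on the other strand. *Phf19*, a Polycomb-like protein that guides PRC2 to chromatin, had values of 9.37, 9.27 and 9.38 in control and 8.65, 8.60 and 8.42 in treated samples and fell by 0.78 (standard error 0.078, adjusted p = 0.00011, limma). The histone chaperones of PRC2 differed from each other, with *Rbbp7* at −0.28 (adjusted p = 0.0056, limma) and *Rbbp4* at 0.01 (adjusted p = 0.86, limma). On the other strand, *Rbbp7* shares 174 exon bases with *Txlng*, and *Rbbp4* shares 782 with *Sync* and 796 with *Gm26722*.

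Of 24 tested PRC1 subunits, 9 rose and 6 fell, with a median of 0.08. The largest difference was that of *Auts2*, a subunit of a PRC1 variant linked to transcription, with values of 3.99, 3.75 and 4.02 in control and 5.80, 5.76 and 5.76 in treated samples. It rose by 1.85 (standard error 0.098, adjusted p = 3.5e-06, limma). *Rybp*, which defines variant PRC1 without CBX proteins, rose by 0.83 (standard error 0.057, adjusted p = 1.5e-05, limma), whereas its paralog *Yaf2* was at −0.20 (adjusted p = 0.09, and 0.0079 without the third treated sample, limma). Of the Polycomb group RING finger proteins, partners of the ligases, the *Bmi1* paralog *Pcgf2* fell by 0.76 (adjusted p = 0.00077, limma), *Pcgf6* fell by 0.33 (adjusted p = 0.0051, limma), *Pcgf3* rose by 0.43 (adjusted p = 0.0028, limma), and *Pcgf1* was at 0.08 (adjusted p = 0.51, limma). *Pcgf5* rose by 0.40 (adjusted p = 0.02, limma), but its adjusted p (limma) was 0.066 without the first control, 0.07 without the second control and 0.068 without the first treated sample. *Pcgf5* shares 60 exon bases with *F530104D19Rik* on the other strand. The *Phc1* paralog *Phc3* rose by 0.61 (adjusted p = 0.0016, limma) and *Phc2* by 0.15 (adjusted p = 0.039, limma), where *Phc1* was lower. The call of *Phc2* was lost without any 1 sample other than the third control sample, with adjusted p (limma) of 0.06 to 0.14. *E2f6*, a repressor in a variant PRC1, fell by 0.77 (adjusted p = 0.015, limma) with uneven treated samples (6.96, 7.30 and 6.41), and its adjusted p (limma) was 0.051 without the first control sample and 0.058 without a limit on the mean. Of the *Cbx7* paralogs, *Cbx6*, which shares 563 exon bases with *Npcd* on the same strand, fell by 0.34 (adjusted p = 0.00047, limma), *Cbx8* was at 0.42 (adjusted p = 0.05, not past the threshold, and 0.038 without the first treated sample, limma) and *Cbx2* at 0.09 (adjusted p = 0.19, limma).

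Of 3 tested genes listed as MBT-domain proteins and other relatives of SCMH1, 2 rose. *Scml4* went from 7.15 ± 0.13 to 8.92 ± 0.064 (SD, n = 3 each) and rose by 1.77 (standard error 0.088, adjusted p = 2.6e-06, limma). *L3mbtl3* rose by 0.85 (standard error 0.061, adjusted p = 1.9e-05, limma). Of 13 tested opposing enzymes and their partners, 2 rose and 2 fell, 30.8% in all. Neither of those that fell, *Asxl1* and *Foxk1*, is itself an enzyme, and *Foxk1* was at −0.39 (adjusted p = 0.00028, limma). *Kmt2a*, a trithorax methyltransferase, rose by 0.85 (standard error 0.18, adjusted p = 0.0057, limma), and the third sample was the lowest of each group (11.10 against 11.63 and 11.54 in control, 11.91 against 12.46 and 12.46 treated). It shares 378 exon bases with an antisense gene. *Asxl1*, a partner of the enzyme that removes the PRC1 mark, fell by 0.42 (adjusted p = 0.00013, limma) and shares 197 exon bases with *2500004C02Rik* on the other strand. The demethylase *Kdm6b* rose by 0.24 (adjusted p = 0.0087, limma), and *Kdm6a*, which removes the same mark, was at −0.06 (adjusted p = 0.71, limma). *Kdm6b* shares 286 exon bases with *Kdm6bos* on the other strand.

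**Figure D5:**
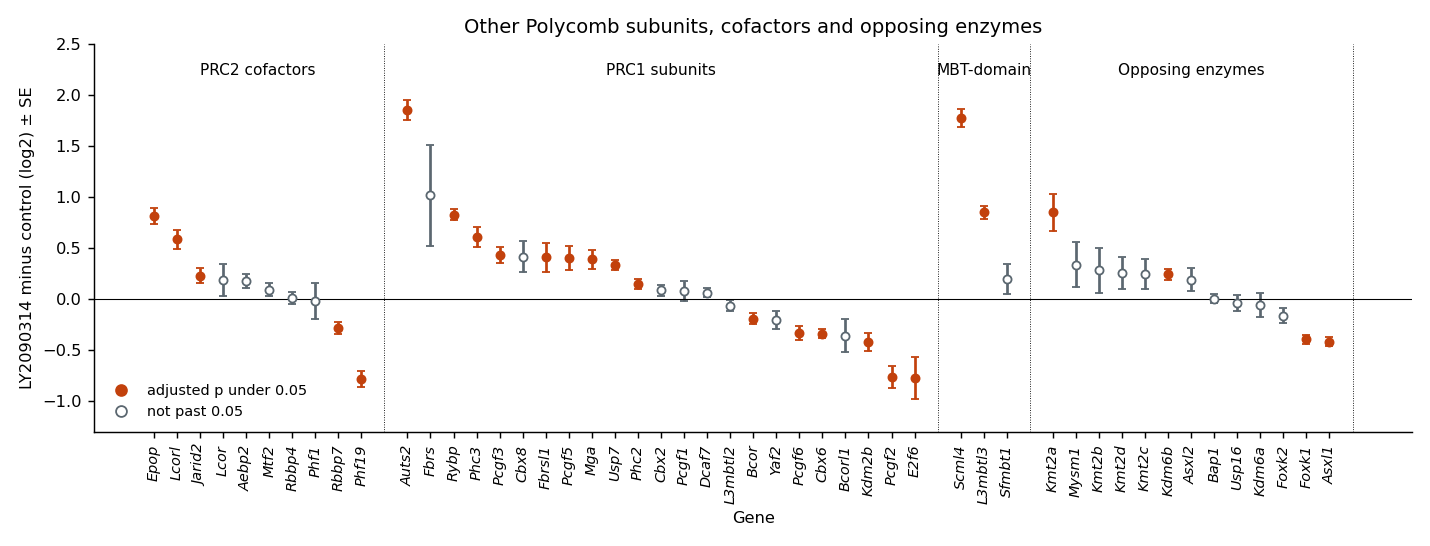
Difference between LY2090314 and control (log2, vertical axis, with the standard error from limma) for 49 of the 50 further Polycomb genes tested (horizontal axis) in 4 groups; filled orange points have an adjusted p under 0.05 and open grey points do not. *Auts2* at 1.85 and *Scml4* at 1.77 are the highest, and *Phf19* at −0.78 is the lowest.

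Of 42 genes that Polycomb complexes silence in textbook accounts, which are Hox genes and inhibitors of cyclin-dependent kinases, 39 had a mean below 3 and 31 of these were listed at 0 in all 6 samples. The 3 genes that were tested rose. *Cdkn2a*, which encodes the cell cycle inhibitors INK4A and ARF, had values of 8.14, 8.12 and 8.05 in control and 9.27, 9.27 and 9.20 in treated samples and rose by 1.14 (standard error 0.062, adjusted p = 4.1e-06, limma). Its neighbour *Cdkn2b* went from 3.28 ± 0.039 to 3.90 ± 0.066 (SD, n = 3 each), a rise of 0.62 (adjusted p = 0.00031, limma). *Hoxb4* rose from 6.20 to 6.63, by 0.42 (standard error 0.10, adjusted p = 0.011, limma). With 3 genes tested, no statement about the list is made.

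*Ezh2* is known as a gene of cycling cells, so a list of 12 proliferation genes was set beside it. Of the 12, none rose and 10 fell, or 83.3%, where 25.3% of all genes tested were lower. The median of the 12 was −0.30, with a range from −0.67 for *Mcm7* (adjusted p = 3.3e-05, limma) to −0.08 for *Cdk1* (adjusted p = 0.21, limma). *Mcm7* shares exon bases with *Cops6* and *Ap4m1* on the other strand. Their summed linear level was 170973 to 181197 in control and 130843 to 137445 in treated samples. Without the second control sample, or without the first treated sample, 6 of the 12 passed the threshold. With the pair of treated columns counted as 1 sample, 7 did. *Ezh2*, in the same samples, was higher by 0.84, and how far its level depends on the share of cycling cells was not tested.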

How the data were processed

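RNA-seq of BCR-ABL1 transformed pre-B cells was deposited for 12 samples in 4 groups. According to the methods of the study and the labels, the authors made stranded libraries of polyadenylated RNA, sequenced them as paired-end reads, quantified transcripts with Salmon and aligned reads with STAR to GRCm38 (GENCODE vM24). The authors deposited regularized log2 (rlog) values. Which samples and options entered the rlog transformation, and whether reads were counted by strand, is not given in the sources used here.

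Of 12 columns, 3 control and 3 LY2090314 columns of ERT2 cells were matched by name, and 6 columns were not used. Symbols were matched to 41157 of 41444 identifiers, and positions and exon lengths are those of GENCODE vM21. The comparison of groups used limma (version 3.58.1, R 4.3.3; mean-variance trend, Benjamini-Hochberg adjustment, threshold 0.05) for genes with a mean of at least 3, which was tested on simulated data. Standard errors are those of limma. Exon overlaps were taken from the annotation, and near-identical transcripts were searched with BLAST (at least 95% identity over 200 bases).

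Named are the 10 members, the 12 largest differences past the threshold without overlap between the groups among the further Polycomb genes, every tested silenced gene, the extremes of the proliferation list and paralogs of members. One paralog is not reported here by name and is not drawn. Other named genes (*Rbbp4*, *Rbbp7*, *Asxl1*, *Foxk1*, *Kdm6a*, *Kdm6b*, *Yaf2*) and the marker values were chosen after their values were seen. The members and lists were chosen with earlier results of these data known. Alternatives were another variance model, limits on the mean, scalings, omitted samples and a stricter threshold.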

Additional observations from a re-analysis of the deposited data

How the results depend on the processing

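The members were chosen with this comparison in view, so their values under the 13 alternatives are a description and no sign of stability. *Ezh2* ranged from 0.80 to 0.87, *Ezh1* from 0.35 to 0.39, *Eed* from −2.43 to −2.11 and *Scmh1* from 1.05 to 1.14 over the 9 alternatives that can move a difference. *Phc1* ranged from −0.28 to −0.19 and was not past a threshold of 0.01, *Ring1* from −0.26 to −0.15 and *Cbx7* from −0.36 to −0.14. *Ring1* was past 0.05 in 4 alternatives and *Cbx7* without the first treated sample. As with the counts of members above, nothing is read from these calls. The number of proliferation genes past the threshold was 6 at a threshold of 0.01 and 6 to 10 when samples were left out in turn. The counts over all genes, the further Polycomb genes and the silenced genes stayed within 1.5 times their value. Small differences that had not passed the threshold changed sign for *Rbbp4* (−0.013 with median centring, −0.029 to 0.044 when samples were left out in turn, lowest without the third treated sample), *Pcgf1* (−0.0082 with quantile normalization) and *Kdm6a* (−0.14 to 0.060 when samples were left out in turn, above 0 without the first control and without the third treated sample). The call of *Phc2* was also lost without the trend, without a limit on the mean, with median centring and with the pair as 1 sample. The cause of these changes was not tested. Quantile normalization shifted the median of all genes to −0.04. No paired analysis was possible because nothing in the column headings ties a control to a treated culture. Without counts, the limit that sequencing depth sets on small differences was not assessed.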
